A study of Mus musculus with 85 samples.

Results

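CB6F1/J mice carry 1 copy of each autosome from a BALB/cJ mother and 1 from a C57BL/6J father, so both alleles of a gene are read in the same cell. The balance between these alleles was compared between 2 kinds of macrophage of the hybrid, Kupffer cells of the liver and bone marrow-derived macrophages (BMDMs) grown in culture. Genes were included when they lay on an autosome and had a mean of 10 or more reads per library that spanned a variant between the strains. Of 22472 autosomal genes in the tables, 5669 met this rule, and the 4991 with a mean of 10 or more such reads in each cell type were tested. For each gene, the log2 ratio of the BALB/cJ to the C57BL/6J allele in BMDMs was subtracted from that in Kupffer cells. A positive difference therefore means a larger BALB/cJ part in Kupffer cells.

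Mice were 8 to 12 weeks old when used. The Kupffer cells came from 4 libraries of male CB6F1/J mice labelled Control. The cells were sorted from liver that was perfused and digested with the transcription inhibitor flavopiridol. In the methods of the LPS experiment, controls were fasted overnight and not injected, and the labels do not say whether these libraries belong to it. The BMDMs came from 2 libraries of male CB6F1/J marrow cultured with L929-conditioned medium and macrophage colony-stimulating factor and given PBS, the vehicle, for 2 h. Further hybrid libraries held 5 of Kupffer cells taken 2 h after 0.1 mg/kg lipopolysaccharide (LPS), 2 of BMDMs given 100 ng/ml of the lipid A Kdo2-lipid A (KLA) for 2 h, and 3 of Kupffer cells from NSG hosts that had received CB6F1/J marrow (NSG). Parental libraries held 2 each of untreated Kupffer cells and PBS-treated BMDMs from BALB/cJ and from C57BL/6J mice. The NSG hosts were immunodeficient mice conditioned with busulfan, whose livers were taken 4 months after the transplant. The study's methods say that male animals were used. Because all hybrids came from 1 direction of the cross, the strain of an allele and the parent it came from cannot be told apart.

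Inside 1 nucleus both alleles meet the same transcription factors and signals, so an unequal output reflects sequence or chromatin on the chromosome itself, acting in *cis*. Enhancers are chosen by cell type, and a variant may therefore act in one kind of macrophage and be silent in another. Kupffer cells are long-lived macrophages of the liver sinusoid that take up particles, complement-coated microbes and ageing red cells, whereas BMDMs are raised from marrow progenitors outside any tissue. Imprinted genes are a separate case, in which the parent of origin decides which copy is read.

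The libraries carried the markers of their labelled cells. Levels are given in TPM, which scales the reads of a gene by transcript length and library size. *Clec4f*, a lectin restricted to Kupffer cells, lay between 5651 and 5954 TPM in the Control Kupffer libraries and between 0.013 and 0.042 in the BMDM libraries, while *Csf1r*, the receptor for macrophage colony-stimulating factor, was high in both, at 2361 to 2754 and 742 to 796 TPM. Among the Kupffer cell markers only *Marco* overlapped between the cell types, at 57.5 to 75.6 TPM in Kupffer and 12.7 to 57.9 TPM in BMDM libraries. Of the general macrophage markers, *Cd68*, *Lyz2* and *Fcgr1* were higher in BMDMs, and *Adgre1*, *Csf1r* and *Mertk* in Kupffer cells. Markers of other cells differed too. The summed level of 21 hepatocyte markers was 1831 to 2186 TPM in Kupffer libraries and 80.2 to 89.4 TPM in BMDM libraries, that of 17 sinusoidal endothelial markers 693 to 765 and 75.7 to 92.9, and that of 18 neutrophil and monocyte markers 109 to 134 and 269 to 304. Under 1 TPM on average were 0, 3 and 13 of these in Kupffer cells and 17, 13 and 5 in BMDMs, in the same order. Their part in the allelic differences was not tested. Each of the 6 libraries held 7.58 to 13.1 M (M, mega) variant-spanning reads over both alleles, of which the BALB/cJ allele took between 48.7 and 49.3% over the tested genes.

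Genes of the X chromosome, which a male receives from the BALB/cJ mother alone, show how cleanly reads were assigned. Over 99 X-linked genes with enough reads, the C57BL/6J columns held 20.8 to 21.96% of the reads in the Kupffer libraries and 24.1 to 24.2% in the BMDM libraries. By gene this share was under 5% in 30 genes and 40% or more in 24, with a median of 17.1%. On autosomes, 214 of the 4991 tested genes (4.29%) had allele counts within 2% of each other in all 6 libraries, and in 40 of them the counts were equal. None of these 214 was called, which their near-equal counts fix in advance, since they cannot pass the limit on size. Where the 2 allele tables hold the same reads, the ratio of alleles is drawn toward 1, and how far this bears on a given gene was not tested. In the 3 NSG libraries the C57BL/6J columns held 55.2 to 60.4% of X-linked reads, which sets these libraries apart and is not what male CB6F1/J donors alone would give, and they are given below only as shares.

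**Figure D1:**
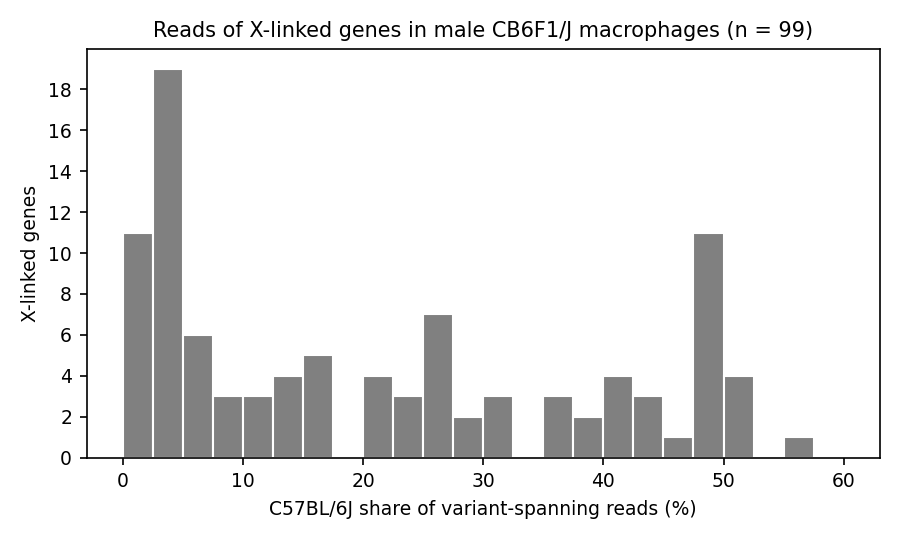
Histogram of the C57BL/6J share of variant-spanning reads (x axis, percent) over 99 X-linked genes in the 4 Control Kupffer and 2 PBS BMDM libraries pooled, with the number of genes on the y axis. Of these genes, 30 lie under 5% and 24 at 40% or more, many of the latter near 50%. The others are spread between, and the median is 17.1%.

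Most genes had a similar balance in Kupffer cells and BMDMs, and a small set did not. A gene was called different when its Benjamini-Hochberg adjusted p from edgeR was under 0.05 and its absolute log2 difference was above 1. Of the 4991 genes, 96 (1.92%) were called, 56 (1.12%) with the balance moved toward BALB/cJ in Kupffer cells and 40 (0.801%) with it moved toward C57BL/6J. In all 96 the shares of the 4 Kupffer libraries lay apart from those of the 2 BMDM libraries, which was the case for 1427 of all tested genes (28.6%). Shares that lie apart largely fix the sign of a difference when 1 library is left out, so a kept sign is no separate support. The median difference was −0.03 on the log2 scale, with quartiles of −0.17 and 0.10, and for 3839 genes (76.9%) the 95% interval of the difference lay within 1 in either direction. Without a limit on size, 402 genes had an adjusted p under 0.05. The count fell to 47 without BMDM PBS replicate 1 and to 42 without replicate 2, where the remaining BMDM library was assumed to vary like the Kupffer libraries, and the 96 differences kept their sign whichever of the 6 libraries was left out. A set of 29 genes was called without each of the 6 libraries in turn, and 53 without each of the 4 Kupffer libraries.

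Within each cell type, imbalance was called by the same limits against equal alleles. It was called in Kupffer cells for 301 genes (6.03%), 127 (2.54%) toward BALB/cJ and 174 (3.49%) toward C57BL/6J. In BMDMs it was called for 276 genes (5.53%), 107 (2.14%) toward BALB/cJ and 169 (3.39%) toward C57BL/6J. The BMDM count fell to 170 without BMDM PBS replicate 2. In 180 genes the imbalance was called in both cell types in the same direction, and 14 of these also had a called difference between the cell types, while in 62 the interval of the difference lay within 1. Imbalance was called in Kupffer cells alone for 119 genes and in BMDMs alone for 94, but the difference itself was called for only 26 and 37 of them. The remaining called differences were 2 genes imbalanced in opposite directions and 17 genes past the limits in neither cell type.

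**Figure D2:**
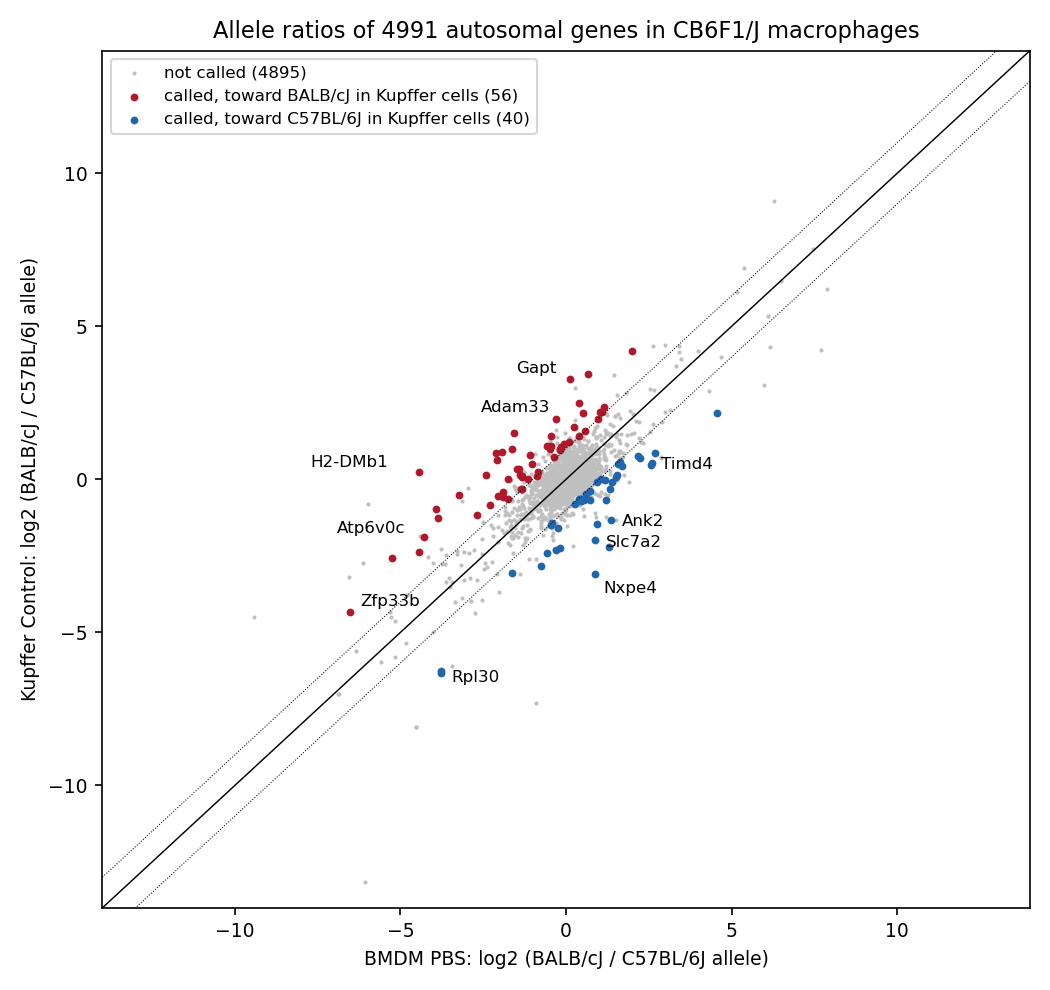
Each point is 1 of 4991 tested genes, with the log2 ratio of the BALB/cJ to the C57BL/6J allele in BMDMs on the x axis and in Kupffer cells on the y axis (the solid line marks equal ratios and the dotted lines a difference of 1). Called genes lie above the band where the balance moved toward BALB/cJ in Kupffer cells (56, red) and below it where it moved toward C57BL/6J (40, blue).

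Genes with a known part in macrophage function are given first, with positions on mm10. *H2-DMb1* (chromosome 17, 34153191 to 34160229) encodes a chain of H2-DM, the chaperone that loads peptides onto MHC class II, and had the largest difference of all called genes. Its BALB/cJ share was 54.5, 54.8, 52.6 and 53.2% in the 4 Kupffer libraries and 4.75 and 3.86% in the 2 BMDM libraries. By the assigned reads, the alleles were nearly even in Kupffer cells, whereas in BMDMs almost all reads were assigned to C57BL/6J. In parental Kupffer cells the strain difference was toward C57BL/6J, as given below, unlike the near-even shares of the hybrid. Whether reads shared with related genes bear on these values was not tested. The difference was 4.70 ± 0.11 (SE, adjusted p = 4.1e-05). The gene itself was at 112 ± 25.3 TPM in Kupffer cells (SD, n = 4) and 5.03 ± 0.04 TPM in BMDMs (SD, n = 2). Scaled to the library's total (RPM), the BALB/cJ allele was higher in Kupffer cells by 8.31 on the log2 scale and the C57BL/6J allele by 3.64. Of the 11 tested genes of MHC class II presentation, *H2-DMb1* alone was called, against 1.92% of all genes tested. The median difference over the list was −0.01.

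*C1qb* (chromosome 4, 136880126 to 136886200), a chain of C1q, the recognition unit of the classical complement pathway, was among the most abundant genes in both cells, with a mean of 158616 variant-spanning reads per Kupffer library and 69008 per BMDM library. Kupffer cells read both alleles evenly, with BALB/cJ shares of 50.2, 49.3, 49.5 and 49.7%. BMDMs read mainly the C57BL/6J allele, with BALB/cJ shares of 20.9 and 23.2%. The difference was 1.77 ± 0.05 (SE, adjusted p = 8.3e-05). On its own, the C57BL/6J allele was higher in Kupffer cells than in BMDMs by 1.37 on the log2 scale of RPM, and the BALB/cJ allele by 3.15. Of 9 tested complement genes, *C1qb* alone was called, against 1.92% of all genes tested, and the median over them was 0.39.

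*Cd5l*, a secreted scavenger-receptor protein of tissue macrophages, and *Timd4*, the phosphatidylserine receptor of resident Kupffer cells, moved in opposite directions. *Cd5l* (chromosome 3, 87357881 to 87371074) had BALB/cJ shares of 53.6, 53.4, 53.8 and 53.3% in Kupffer cells and 37.1 and 33.1% in BMDMs, a difference of 1.09 ± 0.06 (SE, adjusted p = 0.00052). *Timd4* (chromosome 11, 46810786 to 46844333) had shares of 57.5, 56.8, 58.3 and 58.0% in Kupffer cells and 92.4 and 82.2% in BMDMs, a difference of −2.08 ± 0.27 (SE, adjusted p = 0.01). The groups did not overlap for either gene, and in both the BMDM libraries were the more unequal. Both genes were far lower in BMDMs, where *Timd4* had a mean of only 66.5 variant-spanning reads per library against 29115 in Kupffer cells, and *Cd5l* 671 against 190056. Without BMDM PBS replicate 2, *Cd5l* fell to 0.94, under the limit on size. *Timd4* had −1.75 (adjusted p = 0.074) without replicate 1 and −2.92 (adjusted p = 0.084) without replicate 2. The other 10 tested genes of Kupffer cell identity were not called, against 1.92% called of all genes tested. The median difference over all 12 was −0.25.

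**Figure D3:**
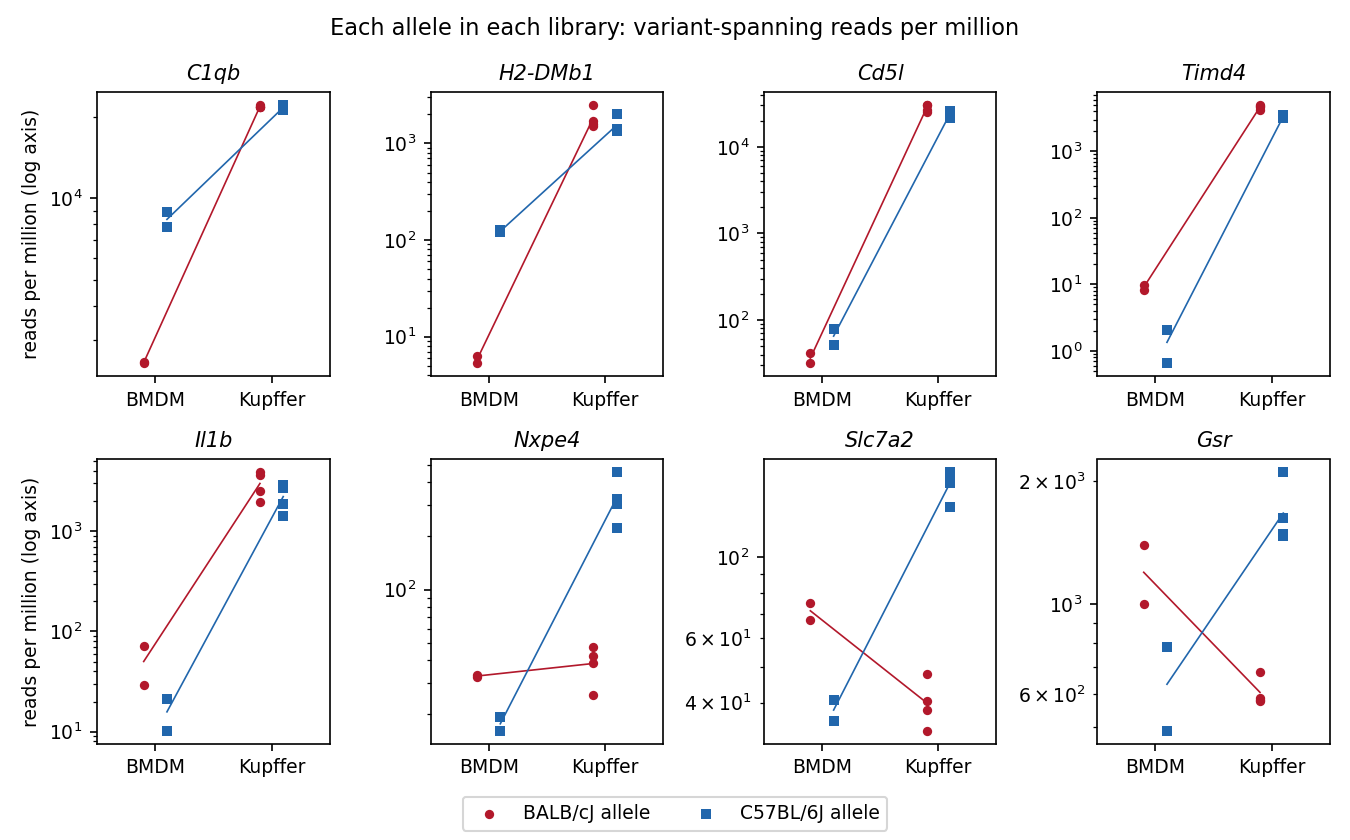
Levels of the BALB/cJ allele (red circles) and the C57BL/6J allele (blue squares), in variant-spanning reads scaled to library totals (RPM) on a log axis, for 8 genes, each point 1 library (2 BMDM, 4 Kupffer) and each line joining the group means. In *C1qb* and *H2-DMb1* the alleles meet in Kupffer cells and lie apart in BMDMs, whereas in *Nxpe4* they lie apart in Kupffer cells.

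Both interleukin-1 genes were moved toward C57BL/6J in Kupffer cells. *Il1b*, which encodes interleukin-1β, had BALB/cJ shares of 56.8, 57.5, 57.2 and 56.8% in Kupffer cells and 73.2 and 76.1% in BMDMs, a difference of −1.24 ± 0.07 (SE, adjusted p = 0.00052). Its neighbour *Il1a*, which encodes interleukin-1α, had 48.4, 46.3, 48.9 and 47.7% and 64.1 and 74.2%, a difference of −1.47 ± 0.19 (SE, adjusted p = 0.0097). For both genes each Kupffer library lay below each BMDM library. Both were far higher in Kupffer cells, *Il1b* at 292 ± 90.0 TPM against 3.83 ± 2.01 and *Il1a* at 62.1 ± 8.68 TPM against 1.93 ± 0.82 (SD, n = 4 and 2). Without BMDM PBS replicate 2 *Il1a* had −1.02 (adjusted p = 0.21). These were the only called genes of the 14 tested NF-κB and inflammatory genes, against 1.92% of all genes tested.

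The chemokine receptors *Cxcr4* and *Cx3cr1* moved in opposite directions. *Cxcr4*, the receptor for CXCL12, had BALB/cJ shares of 53.8, 45.8, 48.3 and 48.2% in Kupffer cells and 67.1 and 69.5% in BMDMs, a difference of −1.22 ± 0.10 (SE, adjusted p = 0.0026). *Cx3cr1*, the fractalkine receptor, had 76.5, 73.7, 74.2 and 73.7% and 58.1 and 58.8%, a difference of 1.03 ± 0.06 (SE, adjusted p = 0.00061), which was 0.98 without Kupffer Control replicate 1. The other 6 tested chemokine genes were not called. *Il21r*, the interleukin-21 receptor, had shares of 18.5, 15.8, 18.8 and 11.3% in Kupffer cells and 42.3 and 44.7% in BMDMs (difference −2.02 ± 0.17 SE, adjusted p = 0.0023). Of 27 cytokine receptor and signalling genes, *Il21r* alone was called. Both lists stand against 1.92% called of all genes tested. *Hmgb1*, a nuclear protein that acts as an alarm signal when released, had 46.3, 39.9, 48.9 and 38.7% and 66.0 and 73.9% (difference −1.64 ± 0.23 SE, adjusted p = 0.012), and −1.35 (adjusted p = 0.084) without BMDM PBS replicate 2. Near-identical copies of *Hmgb1* in the genome make its value uncertain.

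Amino acid metabolism had the most called genes of any list, 4 of 13 tested against 1.92% of all genes tested, with 3 toward C57BL/6J and 1 toward BALB/cJ and a median of −0.05. *Slc7a2* (chromosome 8, 40862341 to 40922070), a transporter of arginine and lysine, had BALB/cJ shares of 21.7, 18.8, 21.3 and 17.1% in Kupffer cells and 66.9 and 61.2% in BMDMs, a difference of −2.87 ± 0.15 (SE, adjusted p = 0.00052). The 2 cell types leaned to different alleles, although only the Kupffer imbalance was called. *Got1*, the cytosolic aspartate aminotransferase, had 35.2, 35.8, 35.6 and 36.0% and 54.3 and 52.6%, a difference of −1.08 ± 0.03 (SE, adjusted p = 8.3e-05). *Hal*, the first enzyme of histidine breakdown, had 65.1, 69.7, 61.0 and 60.2% and 85.4 and 86.5%, a difference of −1.82 ± 0.15 (SE, adjusted p = 0.0024). *Arg1*, which splits arginine into ornithine and urea, had 42.5, 42.5, 42.8 and 49.6% and 30.8 and 26.1%, a difference of 1.03 ± 0.15 (SE, adjusted p = 0.015). The call of *Arg1* was lost without Kupffer Control replicate 4 (0.95) and without BMDM PBS replicate 1 (adjusted p = 0.058) or 2 (0.82, adjusted p = 0.29). *Got1*, *Slc7a2* and *Hal* were called without any 1 of the 6 libraries.

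The iron list held 1 called gene of 12 tested and the adhesion list 2 of 13, against 1.92% of all genes tested. *Steap3*, the endosomal reductase that frees iron from transferrin, had BALB/cJ shares of 53.7, 51.7, 48.6 and 53.3% in Kupffer cells and 33.4 and 34.4% in BMDMs, a difference of 1.02 ± 0.08 (SE, adjusted p = 0.0016). The adhesion genes *Itga9*, an integrin chain, and *F11r*, a junctional adhesion molecule, had differences of −1.02 ± 0.07 (SE, adjusted p = 0.00097) and −1.04 ± 0.12 (SE, adjusted p = 0.0074). All 3 lay just past the limit on size, and *Steap3* fell under it without Kupffer Control replicate 1 (0.98) or 4 (0.99) or BMDM PBS replicate 1 (0.98). *Itga9* fell just under it without Kupffer Control replicate 3 (−0.9994), as did *F11r* without Kupffer Control replicate 1 (−0.996) or 4 (−0.9997), and the call of *F11r* was also lost without either BMDM library (adjusted p = 0.062 and 0.084).

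Of 34 gene lists, 13 held a called gene and 21 held none, and over the 373 distinct tested genes of the lists 17 (4.56%) were called, against 1.92% of all genes tested. The lists were chosen with earlier results known, and no test was made of the excess. None was called of the 25 macrophage transcription factors tested, and at 1.92% of all genes a list of this size may well hold none. The interval of the difference lay within 1 for 21 of them, against 76.9% of all genes tested. It did so for 23 of 24 interferon-stimulated genes, 24 of 26 lysosome genes, 15 of 16 genes of MHC class I presentation, 13 of 13 heat shock genes, 9 of 9 immediate-early genes, and for 15 of 23 proliferation genes and 5 of 10 matrix proteases and inhibitors, with none called in these lists. Medians over these 8 lists lay between −0.08 and 0.01. No gene was called among the tested markers of hepatocytes, sinusoidal endothelium, stellate cells, lymphocytes, neutrophils and monocytes or red cells and platelets, of which 1 to 3 a list had enough reads.

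Outside the lists, the largest shifts toward C57BL/6J in Kupffer cells were led by *Nxpe4* (chromosome 9, 48162004 to 48400025). Its BALB/cJ shares were 11.1, 9.21, 10.1 and 11.3% in Kupffer cells and 65.7 and 62.3% in BMDMs, a difference of −3.96 ± 0.13 (SE, adjusted p = 8.8e-05). The C57BL/6J allele alone was higher in Kupffer cells, by 4.22 on the log2 scale of RPM, against 0.23 for the BALB/cJ allele. *Gsr* (chromosome 8, 33653238 to 33698162), the glutathione reductase, had shares of 25.9, 24.1, 28.1 and 27.8% in Kupffer cells and 66.2 and 62.9% in BMDMs, a difference of −2.37 ± 0.10 (SE, adjusted p = 0.00022), with a similar level in both cells (70.7 ± 10.6 and 63.4 ± 15.2 TPM). From BMDMs to Kupffer cells the BALB/cJ allele differed by −0.98 and the C57BL/6J allele by 1.39 on the log2 scale of RPM. *Cd52*, a small surface glycoprotein of leukocytes, had 8.57, 15.7, 11.98 and 12.2% and 34.2 and 37.9% (difference −2.08 ± 0.19 SE, adjusted p = 0.0031). *Fcrl1*, a member of the Fc receptor-like family, had 15.6, 18.4, 18.5 and 15.7% and 43.4 and 47.6% (difference −2.08 ± 0.12 SE, adjusted p = 0.00064). The C57BL/6J allele was thus the main source of both transcripts in the Kupffer libraries. These libraries also held lymphoid markers, with levels given below, and their part in the values of *Cd52* and *Fcrl1* was not tested.

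Toward BALB/cJ in Kupffer cells, *Gapt* (chromosome 13, 110352614 to 110357220), a transmembrane adaptor that binds GRB2, had the largest difference after *H2-DMb1*. Its BALB/cJ shares were 87.0, 91.5, 92.8 and 90.6% in Kupffer cells and 49.8 and 51.8% in BMDMs, a difference of 3.16 ± 0.18 (SE, adjusted p = 0.00058). The gene was more abundant in BMDMs, and from BMDMs to Kupffer cells the C57BL/6J allele differed by −3.63 on the log2 scale of RPM against −0.50 for the BALB/cJ allele. *Adam33* (chromosome 2, 131050819 to 131063814), a membrane-anchored metalloprotease, had 80.5, 78.5, 80.2 and 78.8% and 40.8 and 45.9%, a difference of 2.28 ± 0.11 (SE, adjusted p = 0.00047). *Trim30d*, of a tandem cluster of TRIM genes, had 49.3, 55.0, 53.9 and 49.1% and 13.3 and 16.3%, a difference of 2.55 ± 0.16 (SE, adjusted p = 0.00086). *Atp6v0c*, the proteolipid subunit of the vacuolar proton pump, had 21.3, 19.2, 20.2 and 22.95% and 5.32 and 4.23%, a difference of 2.38 ± 0.13 (SE, adjusted p = 0.00053). The C57BL/6J allele was ahead in both cell types for *Atp6v0c*, less so in Kupffer cells. Reads of *Trim30d* and *Atp6v0c* can be shared with near-identical copies, and the processed copy *Atp6v0c-ps2* was called in the same direction, so both values are uncertain.

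The other genes described from the 12 largest in each direction lost their calls when 1 library was left out. Toward C57BL/6J these were *Pdgfrl* (−3.50 ± 0.50 SE), *Rpl30* (−2.50 ± 0.30 SE) and *Klrk1* (−2.04 ± 0.38 SE). Toward BALB/cJ they were *Fam89a* (2.99 ± 0.49 SE), *Asb4* (2.97 ± 0.44 SE), *Cd244* (2.70 ± 0.35 SE), *Tmtc2* (2.61 ± 0.49 SE), *Apold1* (2.59 ± 0.51 SE), *Zfp33b* (2.18 ± 0.34 SE) and *P2ry2* (2.10 ± 0.34 SE). Each of these 10 lost its call without BMDM PBS replicate 2, with adjusted p-values from 0.063 (*Rpl30* and *Pdgfrl*) to 0.28 (*Klrk1*). All but *Asb4* and *Fam89a* also lost it without BMDM PBS replicate 1, from 0.059 (*Rpl30*) to 0.28 (*Pdgfrl*). *Apold1* and *Tmtc2* had means of 13.4 and 19.1 variant-spanning reads per Kupffer library and *Pdgfrl* of 12.5 per BMDM library. *Klrk1* encodes NKG2D, a receptor of natural killer and T cells, and *Cd244* a receptor of the SLAM family, and both are read in lymphocytes as well. The summed level of 18 lymphoid markers was 117 to 136 TPM in Kupffer libraries and 68.5 to 77.9 TPM in BMDM libraries, and its part in these values was not tested.

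**Figure D4:**
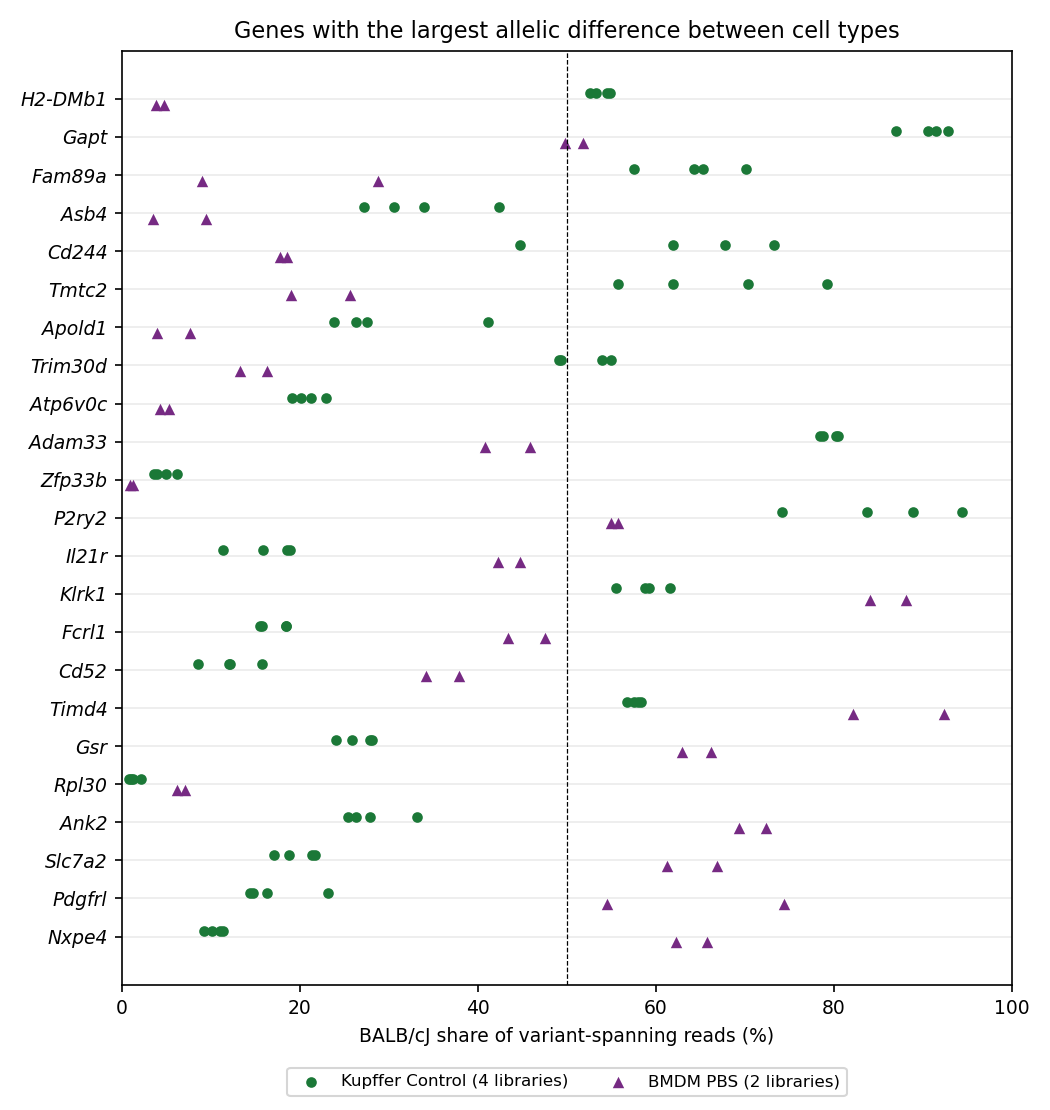
BALB/cJ share of variant-spanning reads (x axis, percent) for genes with the largest called differences, 12 toward BALB/cJ and 11 toward C57BL/6J, with 4 Kupffer Control libraries (green circles) and 2 PBS BMDM libraries (purple triangles) for each gene and a dashed line at 50%. Genes were chosen among those whose libraries do not overlap between the 2 cell types, as in 28.6% of all tested genes. The range within a cell type is widest for genes with few reads.

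In 2 genes the alleles were called in opposite directions in the 2 cell types. *Ank2* (chromosome 3, 126921607 to 127500347), an ankyrin that ties membrane proteins to the spectrin skeleton, had BALB/cJ shares of 25.4, 33.1, 26.2 and 27.9% in Kupffer cells and 69.4 and 72.3% in BMDMs, a difference of −2.68 ± 0.18 (SE, adjusted p = 0.0011). Its C57BL/6J allele was higher in Kupffer cells by 2.79 on the log2 scale of RPM, while the BALB/cJ allele differed by 0.12. The other was the MHC class I pseudogene *H2-T-ps*, with 59.7, 89.3, 78.2 and 65.7% and 25.5 and 22.8% (difference 3.11 ± 0.55 SE, adjusted p = 0.027). It belongs to a family of close copies, had a mean of 36.4 reads per Kupffer library, and lost its call without Kupffer Control replicate 3 (adjusted p = 0.075) or either BMDM library (0.15 and 0.19).

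The reverse pattern, a strong imbalance that both cell types shared, is given for the 6 genes in each direction with the narrowest interval of the difference, all within 1. A difference under the limit on size was still found in 7 of the 12, with an adjusted p under 0.05 and shares that did not overlap. Of all 4991 tested genes, 402 had such an adjusted p and 1427 (28.6%) had shares that did not overlap. The 12 were chosen for narrow intervals, with which small differences reach this limit more easily. *Gatm*, which makes the creatine precursor guanidinoacetate, had BALB/cJ shares of 73.2, 74.4, 73.4 and 73.4% in Kupffer cells and 69.2 and 70.2% in BMDMs, a difference of 0.24 ± 0.04 (SE, adjusted p = 0.018). *Alpk1*, a kinase that senses bacterial sugars, had 73.0, 71.4, 71.1 and 71.2% and 68.6 and 67.1%, a difference of 0.23 ± 0.05 (SE, adjusted p = 0.047). *Glrx*, a glutaredoxin, had a difference of −0.15 ± 0.10 (SE, adjusted p = 0.54), with mean shares of 68.4% ± 0.78 (SD, n = 4) and 69.9% ± 2.60 (SD, n = 2). Toward C57BL/6J, *Cyp4f18*, a cytochrome that oxidizes leukotriene B4, had mean shares of 19.3% ± 0.5 and 18.8% ± 0.97 and a difference of 0.01 ± 0.07 (SE, adjusted p = 0.99). *Slamf8*, a receptor of the SLAM family on macrophages, had 20.8% ± 0.49 and 29.5% ± 0.42 and a difference of −0.72 ± 0.07 (SE, adjusted p = 0.0035). The others by the same rule, *Ifi44*, *Ubald2*, *Vangl2*, *Hspa8*, *Ifi209*, *Rps2* and *H2-K1*, had differences between −0.46 and 0.68. Adjusted p-values were 0.0033 for *Ifi44*, 0.032 for *Ubald2*, 0.0077 for *Hspa8* and 0.0034 for *H2-K1*, and from 0.6 to 1 for the other 3. Reads of *Hspa8*, *Ifi209*, *Rps2* and *H2-K1* can be shared with close copies.

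Imprinted genes were taken as a group of their own. Of 17 tested, 5 were imbalanced in each cell type, and they were the same 5, each toward the C57BL/6J allele, which came from the father. For *Tspan32* the strains themselves differed, at 0.068 TPM in BALB/cJ and 4.73 TPM in C57BL/6J Kupffer cells and at 0 and 12.3 TPM in BMDMs (means, n = 2 each), and for this gene strain and parent of origin cannot be told apart. The strain difference of the other 4 was called in neither parental cell type. *Kcnq1ot1*, *Peg13* and *Zrsr1* are known to be read from the paternal copy. Whether imprinting underlies the lean of *Blcap* or *Tspan32* was not tested. *Kcnq1ot1*, a long noncoding RNA that silences its domain, had BALB/cJ shares of 13.3, 15.1, 14.1 and 18.2% in Kupffer cells and 8.20 and 9.10% in BMDMs, a difference of 0.85 ± 0.16 (SE, adjusted p = 0.03) that stayed under the limit on size. *Peg13* had 10.5, 11.8, 11.97 and 12.6% and 15.5 and 15.5%, a difference of −0.48 ± 0.16 (SE, adjusted p = 0.32). *Blcap* had mean shares of 21.2% ± 2.41 and 24.4% ± 0.85, *Tspan32* 13.6% ± 11.8 and 6.90% ± 0.022, and *Zrsr1* 12.7% ± 5.32 and 6.45% ± 6.59 (SD, n = 4 and 2). The last 2 rest on 20.2 and 49.4 reads per Kupffer library. No imprinted gene was called different between the cell types, and the median over the 17 was 0.03. At 1.92% called of all genes tested, a list of this size may well hold none.

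Of the genes that the study discusses, 18 were tested and 2, *Cxcr4* and *Slc7a2*, were called, against 1.92% of all genes tested. The study chose these genes on libraries of the same series, so they are not independent evidence. *Arg2*, the mitochondrial arginase, was imbalanced toward BALB/cJ in both cells, at 78.0, 78.1, 77.9 and 76.5% in Kupffer cells and 84.5 and 86.2% in BMDMs, and its difference of −0.81 ± 0.12 (SE, adjusted p = 0.014) lay under the limit on size. *Fads1*, a fatty acid desaturase, had 66.9, 67.0, 65.9 and 63.3% and 53.4 and 53.5%, a difference of 0.71 ± 0.07 (SE, adjusted p = 0.0034). *Abcg1*, a cholesterol exporter, had 53.1, 52.5, 53.5 and 53.2% and 58.4 and 57.9%, a difference of −0.33 ± 0.03 (SE, adjusted p = 0.0016). These 3 differences were small beside those above. Their library shares did not overlap, which held for 28.6% of all tested genes and also for *Adam17* and *App*, given below. *Marco*, a scavenger receptor, had mean shares of 36.5% ± 1.19 and 29.7% ± 2.74 (difference 0.33 ± 0.08 SE, adjusted p = 0.079). *Aoah*, the enzyme that inactivates LPS, had 34.1% ± 1.04 and 33.3% ± 0.068 (difference 0.01 ± 0.05 SE, adjusted p = 0.98), both below an even share. The remaining 11 genes, *Adam17*, *App*, *Atf5*, *Cd40*, *Cxcl14*, *Ifi203*, *Irak3*, *Med21*, *Sdc1*, *Tnf* and *Tnfaip3*, had differences between −0.14 and 0.25. Of these, *Ifi203* had the lowest adjusted p (0.038), and *Sdc1* had mean shares of 50.0% ± 0 and 50.1% ± 0.13, as in the genes with near-equal allele counts.

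Some called genes lay beside each other. Within 1 Mb of each other lay 17 pairs of called genes, 9 of them moved in the same direction and 8 in opposite directions. *Slc7a2* and *Pdgfrl* on chromosome 8 are 4.16 kb apart (−2.87 and −3.50). *Hal* and *Amdhd1* on chromosome 10, which both encode enzymes of histidine breakdown, are 6.58 kb apart (−1.82 and −1.38). *Il1a* and *Il1b* on chromosome 2 are 54.4 kb apart (−1.47 and −1.24). *Hgsnat*, a lysosomal acetyltransferase, and *Pomk*, a kinase of the dystroglycan sugar chain, are 3.86 kb apart on chromosome 8 (1.53 and 1.80). *Cd5l* and *Fcrl1* on chromosome 3, 5.28 kb apart, went opposite ways (1.09 and −2.08). A further pair, *D730005E14Rik* and *Apobec3*, a cytidine deaminase that restricts retroviruses, overlap on chromosome 15 and may share reads (1.51 and 1.44). *Amdhd1*, *Hgsnat*, *Pomk*, *D730005E14Rik* and *Apobec3* are given here because of their position, after their values were seen.

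A called difference in balance did not go with a large difference in level for most genes. Levels were compared by mean TPM, with a small constant added to each mean. Of the 56 genes moved toward BALB/cJ, 6 (10.7%) were more than 4-fold higher in Kupffer cells and 6 (10.7%) more than 4-fold higher in BMDMs. Of the 40 moved toward C57BL/6J, these counts were 8 (20%) and 2 (5%). The shares over all tested genes were lower, at 3.37 and 4.49%. The most unequal levels among them belonged to *Cd5l* and *Timd4*, described above. A further 678 genes met the rule over the 6 libraries but not in 1 cell type, and were not tested. A mean under 10 variant-spanning reads was found for 285 in Kupffer cells and 393 in BMDMs. *Clec4f* had a BALB/cJ share of 52.6% ± 0.15 (SD, n = 4) in Kupffer cells over a mean of 166042 reads and no variant-spanning read in BMDMs. *Lepr*, the leptin receptor, had 48.4% ± 0.71 over 3867 reads, *Cd163*, the haptoglobin-haemoglobin receptor, 52.1% ± 1.85 over 4544 reads, and *Lilra5*, a leukocyte immunoglobulin-like receptor, 63.9% ± 1.42 over 3446 reads (SD, n = 4 each). In BMDMs alone, *Fcrls*, an Fc receptor-like scavenger receptor, had 41.1% ± 1.28 (SD, n = 2) over 9471 reads. *Alb*, the hepatocyte product albumin, had 50.0% ± 0.012 (SD, n = 4) over 2357 reads in Kupffer libraries, a gene of near-equal counts.

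The same difference was then taken from libraries that had no part in the calls. Between Kupffer cells of LPS-injected hybrids and KLA-treated BMDMs, 4428 genes were tested and 62 (1.4%) were called, 34 (0.768%) toward BALB/cJ and 28 (0.632%) toward C57BL/6J. The stimuli and routes differ, so the 2 readouts are set side by side and are not the same contrast. Of the 56 genes moved toward BALB/cJ in untreated cells, 50 were tested, 44 had the same sign and 17 were called in the same direction. Of the 40 moved toward C57BL/6J, 37 were tested, 36 had the same sign and 13 were called in the same direction. No gene was called in the opposite direction, and the medians were 1.09 and −1.71, against −0.01 over all genes tested. *H2-DMb1* had 3.75 ± 0.27 (SE) there, *C1qb* 1.78 ± 0.03 (SE), *Timd4* −3.51 ± 0.23 (SE), *Nxpe4* −4.40 ± 0.69 (SE) and *Slc7a2* −2.99 ± 0.08 (SE). The count of 62 fell to 28 without BMDM KLA replicate 1 and to 27 without replicate 2.

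In the parental strains, the strain difference (BALB/cJ minus C57BL/6J) in Kupffer cells minus that in BMDMs was called for 1029 of 13244 genes (7.77%), 514 (3.88%) toward BALB/cJ and 515 (3.89%) toward C57BL/6J. Each parental cell holds the genome of 1 strain, so effects in *trans* enter this contrast as well as those in *cis*. Of the 56 genes moved toward BALB/cJ in the hybrid, 52 had the same sign, 32 were called in the same direction and 2 were called in the opposite one, and the median was 1.88. Of the 40 moved toward C57BL/6J, 33 had the same sign, 22 were called in the same direction and none in the opposite one, and the median was −1.73, against 0.01 over all genes tested. The 2 exceptions were *Atp6v0c*, at −1.30 ± 0.25 (SE), and its copy *Atp6v0c-ps2*. *Nxpe4* had −6.30 ± 0.31 (SE), *Ank2* −6.03 ± 0.65 (SE), *Gapt* 5.47 ± 0.55 (SE) and *C1qb* 2.28 ± 0.14 (SE). For *H2-DMb1* the parental value was 1.14 ± 0.24 (SE), and its strain difference was toward C57BL/6J in both cell types, at −2.31 ± 0.14 (SE) in Kupffer cells and −3.45 ± 0.18 (SE) in BMDMs. *Cd5l* had −0.41 ± 0.18 (SE) and *Il1b* −1.49 ± 1.27 (SE), neither of them called.

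**Figure D5:**
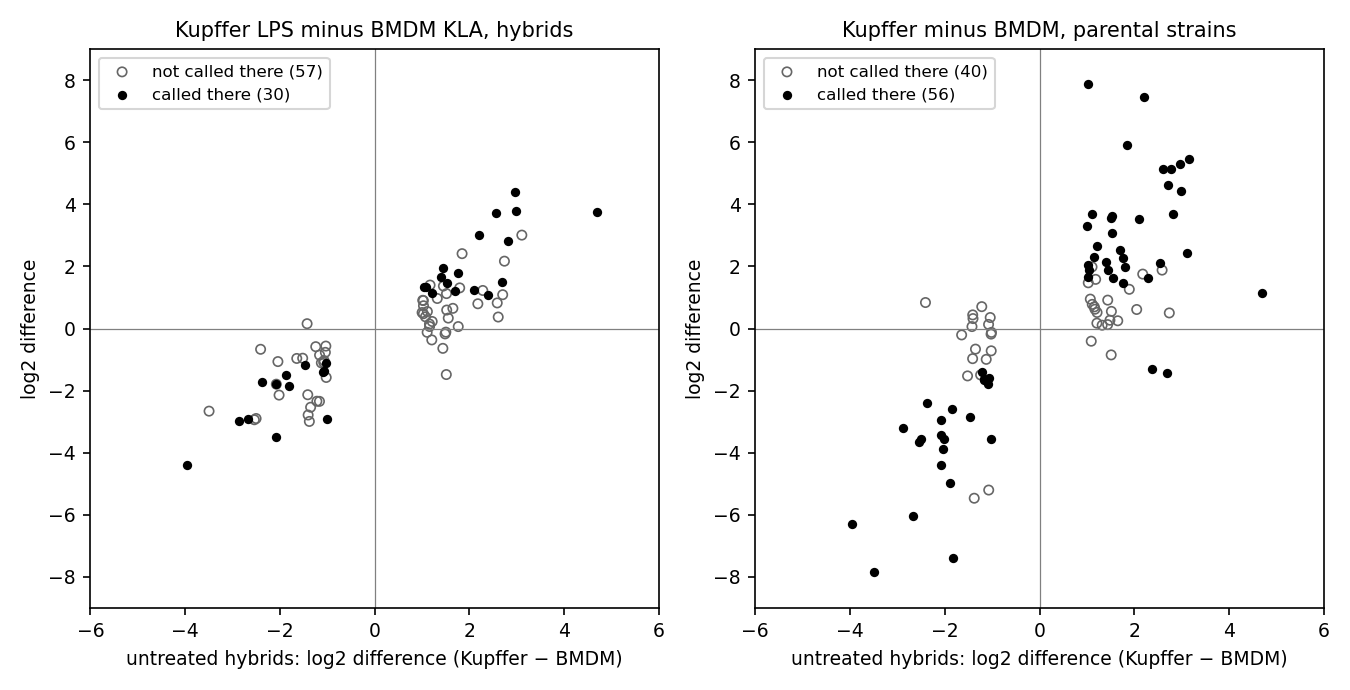
The called genes' log2 difference in untreated hybrids (x axis) against the same quantity in LPS-treated Kupffer cells and KLA-treated BMDMs of hybrids (left, y axis) and against the strain difference in parental Kupffer cells minus BMDMs (right, y axis), with filled points for genes called there. Points in the lower left and upper right have the same sign, 80 of 87 genes on the left and 85 of 96 on the right.

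Kupffer cells that arose from hybrid marrow in NSG livers allowed a further view, given as shares with no test. Of the called genes with 10 or more reads there, 43 of 54 moved toward BALB/cJ and 28 of 38 moved toward C57BL/6J had a mean share nearer to that of Control Kupffer cells than to that of BMDMs. A nearer share need not be a similar one, and some lay beyond both cell types. *Arg1* had a mean NSG share of 77.6%, against 44.4% in Control Kupffer cells and 28.5% in BMDMs. *Apold1* had 74.9%, against 29.7 and 5.82%. How many genes lay beyond both was not counted, and no such comparison was made over all tested genes. *C1qb* was at 49.2, 50.0 and 50.0% in the 3 NSG libraries, *H2-DMb1* at 59.9, 59.9 and 61.1%, *Nxpe4* at 13.1, 13.9 and 14.5% and *Gsr* at 32.6, 31.7 and 31.9%. In these genes marrow-derived cells of the liver had shares on the Kupffer side. *Timd4* was at 82.2, 82.4 and 85.2%, *Ank2* at 80.2, 69.1 and 70.0% and *Cd52* at 27.1, 23.5 and 29.3%, nearer to BMDMs. The X-linked reads of these libraries lay apart from the others, as given above, and the part of this in the shares was not tested.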

How the data were processed

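RNA-seq of CB6F1/J macrophages was used from 16 libraries, with 8 libraries of the parental strains, grouped by the labels. Poly(A) RNA had been made into strand-marked (dUTP) libraries. The authors aligned each library with STAR both to mm10 and to a BALB/cJ genome made from its variants, and MMARGE kept perfectly matching reads that span a variant. With HOMER the authors counted these reads over exons for each allele, and the deposited tables hold expected counts, some ending in 0.5, so values were rounded before testing. The deposited TPM values of the hybrids were made by the authors from all perfectly matching reads, whether or not they span a variant, and served for levels, markers and a filter. No source used here gives the versions of these tools or the strand setting, and overlapping genes on opposite strands cannot be told apart. Of 20 deposited tables, 12 were not used.

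Allelic effects were fitted with edgeR 4.0.16 in R 4.3.3 (quasi-likelihood, robust, TMM) on 12 allele columns of 6 libraries, with a term for each library and an allele effect for each cell type. Size factors were set for each allele column, so ratios are relative to the bulk of genes. Adjusted p-values of single genes are from edgeR with Benjamini-Hochberg adjustment over all genes tested, and standard errors follow from the F statistic. The LPS and KLA libraries were fitted in the same way, and parental libraries with a strain by cell type term. DESeq2 1.42.0 and limma 3.58.1 were alternatives. In simulated data for the first comparison (4991 genes), 98% of log2 differences of 2 were called in each direction, and 80% of differences of 1.5 and 86% of −1.5. The labels do not say that each library came from a separate animal or culture, and the p-values then measure only how these libraries vary, which may be technical.

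Coordinates are 1-based mm10 positions of the RefSeq annotation, to which 22969 of 23608 symbols matched directly and 546 by a synonym. Of 93 unmatched genes, 20 had enough reads and were left out. Genes were named by this rule: the 12 largest called differences in each direction whose library shares did not overlap, without gene models and pseudogenes; called genes of each list, at most 4 a list; genes called in opposite directions; tested genes that the study names; the 6 narrowest shared imbalances in each direction; and imprinted genes called in either cell type. The genes, lists and rule were chosen with earlier results of these data known. One gene that the rule names is not reported here.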

Additional observations from a re-analysis of the deposited data

Results flagged for a closer look

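The allelic difference between Kupffer cells and BMDMs was itself the test of a difference between groups, and it was called for 56 genes toward BALB/cJ and for 40 genes toward C57BL/6J in Kupffer cells.

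In 4 of the 71 genes that the naming rule gives, 1 of the 4 Control Kupffer libraries lay far from the other 3, about what chance gives, since chance marks about 1 group in 20. These were the BALB/cJ shares of *Arg1* (49.6%), *Arg2* (76.5%) and *Marco* (34.7%) in replicate 4 and of *Gatm* (74.4%) in replicate 2.

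X-linked reads, which took no part in the comparison, were assigned to the C57BL/6J allele at 20.8% in the lowest and 24.2% in the highest of the 6 male libraries, and at 55.2% in the lowest and 60.4% in the highest of the 3 NSG libraries.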

How the results depend on the processing

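The count of 96 called differences lay between 69 and 107 with column totals in place of TMM, with 1 size factor per library, with DESeq2 or limma, with other minimums on reads, with counts not rounded, with alleles not paired by library and without genes of near-equal allele counts (the last chosen after seeing the data). DESeq2 called 72 and limma 80 of the 96 genes, and both called 64. Among genes with a mean TPM above 8, 3660 in all, counts were 50 for the difference, 142 for imbalance in Kupffer cells and 139 in BMDMs, and the parental count was 610 under its TPM limit. With an adjusted p alone they were 402, 1390 and 1063. Leaving out 1 library gave 42 to 82 differences, 284 to 293 imbalanced genes in Kupffer cells, 170 to 270 in BMDMs, 27 to 58 differences under LPS and KLA and 820 to 955 parental ones. Over all alternatives, the named called genes kept their direction throughout, with 592 values past the limits and 113 not.

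Replicate numbers are shared between groups, and the labels do not say whether they pair the samples. The deviations of same-numbered libraries correlated at 0.055 and 0.0084 over genes. These deviations hold counting noise, and those of the 2 BMDM libraries mirror each other, so low values cannot exclude a shared batch. The numbers were not used as a block in the main fit. With the replicate number as a block, which leaves 1 residual degree of freedom, edgeR called 0 differences (775 genes at an unadjusted p under 0.05), 118 imbalances in Kupffer cells and 99 in BMDMs, and all 96 differences kept their sign. Shares that lie apart largely fix the sign of these differences. The parental count was 1023 with the block. With a minimum mean of 30 reads in each cell type, 94 differences were called.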
